A study of Bos taurus with 18 samples.

Results

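The receptors through which cells hold collagen and fibronectin were followed in undifferentiated bovine mesenchymal stem cells (MSCs), as the read counts of 10 genes chosen by symbol from the 16989 genes counted. All 10 symbols were present. The collagen-binding members were ITGA1, ITGA2, ITGA10, ITGA11, DDR1 and DDR2, the fibronectin-binding members were ITGA5, ITGAV and ITGB3, and ITGB1 is the beta subunit that most of the alpha subunits share. The libraries came from bone marrow-derived MSCs of 1 donor, grown on plastic in serum-containing basal medium without chondrogenic induction and taken at passage 1. Of the 18 libraries, 17 were clones, each expanded from a single cell, and 1 was a heterogeneous (mixed, unsorted) population that was labelled Het. The study asked whether RNA levels in undifferentiated clones foretell how much cartilage-like matrix they later deposit; matrix deposition itself was not analysed here.

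Integrins are pairs of an alpha and a beta subunit that span the cell membrane, bind matrix outside and connect to actin inside through talin, kindlin and vinculin. The alpha subunits ITGA1, ITGA2, ITGA10 and ITGA11 pair with ITGB1 and bind collagens, ITGA5 pairs with ITGB1 to form the classical fibronectin receptor, and ITGAV pairs with ITGB1, ITGB3 and other beta subunits and binds fibronectin, vitronectin and osteopontin. DDR1 and DDR2 are of another family, the discoidin domain receptors, which are tyrosine kinases that are switched on by collagen. In cartilage and its precursors these receptors anchor cells to their matrix, and ITGA10 is known as the collagen II-binding integrin of chondrocytes.

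Reads on genes numbered 11484812 to 18458157 per clone and 16092501 in Het. Levels are given as CPM, reads per 1000000 reads of the TMM-normalised library, and were not scaled by gene length, so a level is compared between populations and never between genes. Each clone was sequenced once, and the spread given is the one between clones. Clones C and O were far closer than any other pair, with a chi-square per degree of freedom of 4.73 over genes against 21.42 for the next closest of 136 pairs, which is above sampling noise. They were kept as 2 clones, as labelled, but this does not show that they arose from separate cells, and tests over 17 clones count both. Clone N stood apart, with 86 of 11761 genes (0.731%) past an adjusted p of 0.05 against the other clones, where M had 4 and the other 15 clones had 0. The MSC markers THY1 and ENG were present in every library (212.2 to 589.3 and 137.0 to 291.0 CPM over the clones), whereas LEPR had at most 2 reads and VCAM1 0 to 47 reads in a clone, with a median of 1. In Het, the listed macrophage markers summed to 243.5 CPM against 4.76 to 33.98 CPM in the clones. All 16 of the list lay above every clone, where 9.5% of all genes tested did. Some of these markers passed the filter on low counts through Het alone.

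All of the receptor genes were detected in each library, and they differed widely in how far they spread over the clones. ITGAV and ITGB1 were the most even members, and ITGA10, ITGB3 and ITGA11 the most uneven. The SD of the log2 level over the 17 clones ran from 0.26 for ITGAV to 1.14 for ITGA10, with a median of 0.52 over the 10 genes against 0.33 over the 11761 genes that passed the same filter on low counts. Of the 10 genes, 8 lay above that median gene. Among the 8 was ITGA2, whose SD of 0.49 rests on 2 to 13 reads per clone. It exceeded the SD of only 18.9% of the 1000 genes closest to ITGA2 in level. With 1 in place of 0.25 added to the CPM before the log, it was 0.22.

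**Figure D1:**
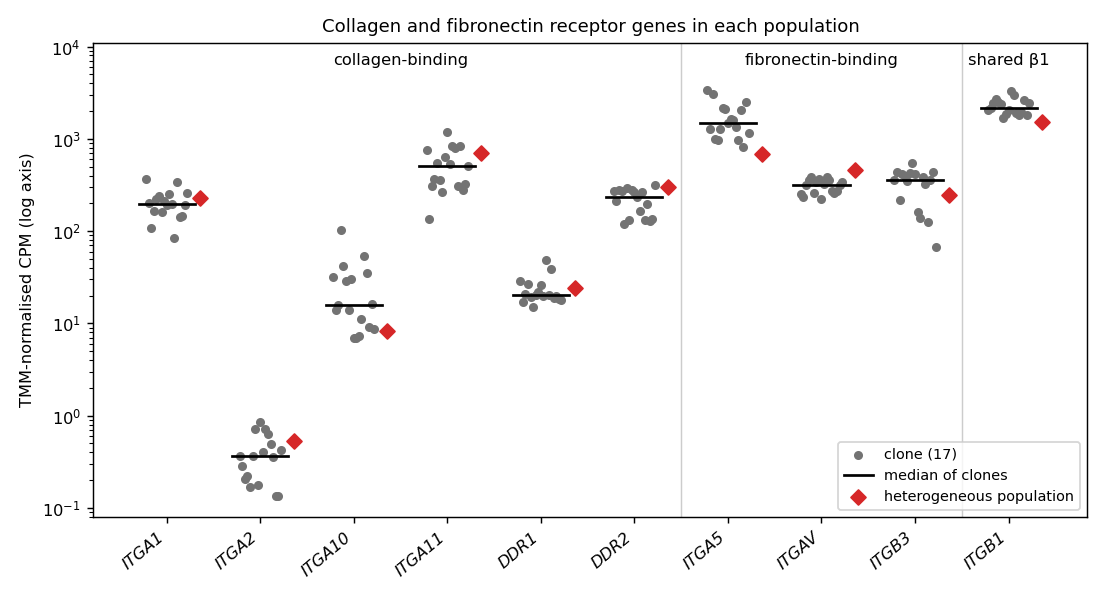
Level of each receptor gene in every population, in TMM-normalised CPM on a log axis, with a grey point for each of the 17 clones, a bar at their median and a red diamond for the heterogeneous population. Levels are not scaled by gene length, so columns are not to be compared with each other; ITGAV and ITGB1 are narrow columns, while ITGA10 spreads 14.9-fold, and the diamond lies outside the clones for ITGA5, ITGAV and ITGB1.

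Among the collagen-binding integrins, ITGA10 varied the most. It was lowest in clone D at 6.87 CPM, had a median of 15.7 CPM and was highest in clone N at 102.6 CPM, a 14.9-fold range from 77 to 1568 reads. N stood clear of the next clones, P at 54.2 CPM and Q at 42.1 CPM, while D, I and F (6.87, 6.995 and 7.23 CPM) could hardly be ranked. Its SD exceeded that of 95.6% of genes, and of 97.3% of the 1000 genes closest to it in level. Het, at 8.20 CPM, lay above 3 clones.

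ITGA11, a receptor for fibrillar collagen on fibroblast-like cells, was lowest in the clone where ITGA10 was highest. It ran from 134.8 CPM in N through a median of 510.7 CPM to 1177 CPM in M (SD 0.80 log2 units, n = 17 clones), and Het had 694.3 CPM. M was followed by A, J and E at 840.4, 829.0 and 802.6 CPM, a group with little between its members. The ratio of ITGA10 to ITGA11 reads, in which gene length cancels between clones, therefore moved 66.7-fold over the clones, from 0.0114 in E to 0.762 in N.

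ITGA1, a receptor for collagen IV as well as fibrillar collagens, ran from 85.0 CPM in P to 369.1 CPM in K, with a median of 198.3 CPM (SD 0.53) and 229.7 CPM in Het. P and M were the low clones and K and F (336.2 CPM) the high ones, with the other 13 between 143.6 and 256.7 CPM. ITGA2, best known as the collagen receptor of platelets and epithelia, was barely detected, with 2 to 13 reads in a clone and 8 in Het. The lowest clone, Q, had 2 reads (0.135 CPM, 95% Poisson interval 0.0163 to 0.486) and the highest, N, had 13 (0.851 CPM, 0.453 to 1.46). These intervals overlap, so no order of clones can be read for ITGA2, and they cover counting error only.

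The discoidin domain receptors had separate patterns. DDR1, chiefly an epithelial receptor, was low and even in most clones, from 15.03 CPM in A to 28.6 CPM in K, with P at 48.9 CPM and Q at 39.0 CPM above them. Its median was 20.5 CPM and its SD 0.43, and the SD was 0.33 without P. DDR2, the discoidin receptor of mesenchymal cells, split more broadly, from 120.5 CPM in L to 317.7 CPM in K around a median of 235.2 CPM (SD 0.51). Clones L, O, G, C, I and H, at 120.5 to 163.6 CPM, lay below the rest, which began with P at 194.2 CPM, and Het had 301.6 CPM.

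Of the fibronectin receptor genes, ITGA5 was lowest in Q at 816.9 CPM and highest in O at 3362 CPM, around a median of 1495 CPM (SD 0.60). O and C (3085 CPM) were above all other clones, G following at 2508 CPM. ITGAV stayed within 222.7 CPM (G) and 388.7 CPM (B), a 1.75-fold range, with an SD below that of the median gene. ITGB3, the partner of ITGAV on osteoclasts and of ITGA2B on platelets, ran from 67.6 CPM in Q to 551.3 CPM in G around a median of 360.4 CPM (SD 0.82). It was low in Q, P, N, D and K, at 67.6 to 219.4 CPM, and 319.8 CPM or more in the other 12 clones. Without Q its SD was 0.64.

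ITGB1, the common partner, had 24686 to 45356 reads per clone. It ran from 1665 CPM in M to 3314 CPM in F with a median of 2173 CPM (SD 0.28, n = 17), a 1.99-fold range, so the shared subunit varied less than most of its alpha partners. Its SD was below that of the median gene, at the percentile 38.9, and ITGAV stood at 34.1.

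Clones C and O had nearly the same receptor profile. For 9 of the 10 genes they differed by at most 0.21 log2 units, where the median pair of clones differed by 0.27 (ITGAV) to 1.13 (ITGA10). The exception was ITGA2, with its few reads, at 0.57. Clones P and Q shared high DDR1 and ITGA10 with low ITGB3, and N shared the last 2 of these.

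**Figure D2:**
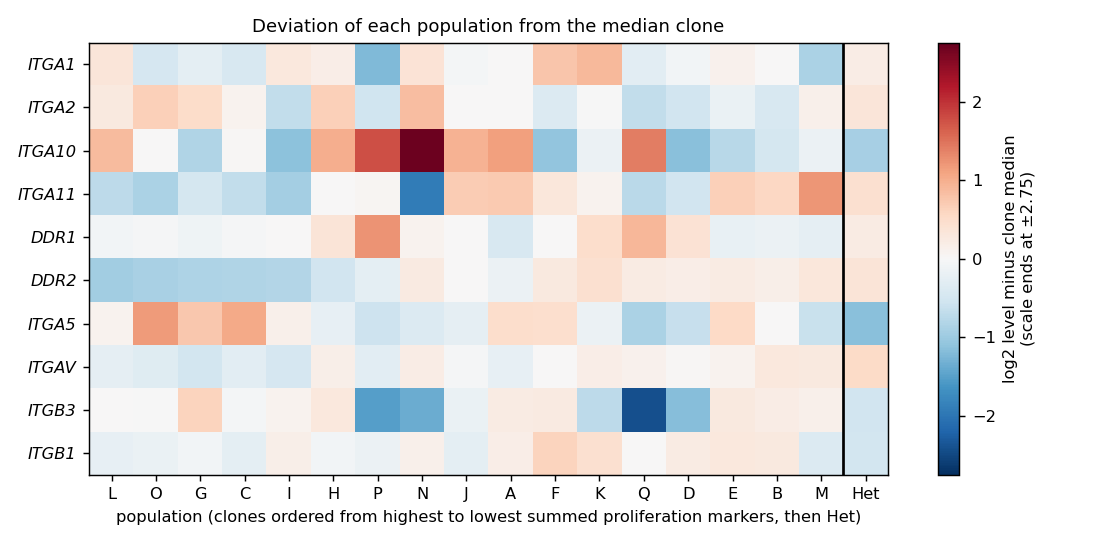
Log2 level of each receptor gene minus its median over the 17 clones, red for higher and blue for lower, in columns ordered from the clone with the highest summed proliferation markers (L) to the lowest (M), followed by the heterogeneous population. DDR2 is blue in the leftmost columns, the largest departures are ITGA10 in N (2.69) and ITGB3 in Q (-2.41), and columns O and C are alike.

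To see whether any clone differed from the rest by more than the clones spread, each was set against the other 16 with edgeR's quasi-likelihood test over 11761 genes. No receptor gene passed an adjusted p of 0.05 in any of the 170 tests. The background over the 17 contrasts was 0.045% of gene tests called, and 0.765% of genes called in at least 1 clone. Without adjustment 9 of the 170 tests (5.29%) had a p under 0.05, against 4.4% over all genes, and limma made 0 calls as well, with 8 such tests.

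The departures with the smallest p were those that stood out in the levels. DDR1 in P was 1.16 log2 units above the other clones (standard error 0.31, adjusted p = 0.6215 by edgeR), and ITGB3 in Q was below them at -2.35 (standard error 0.71, edgeR adjusted p = 0.7577). The smallest adjusted p was that of ITGA10 in N, which was 2.31 log2 units higher (standard error 0.73, adjusted p = 0.1391 by edgeR, between 0.09955 and 0.1614 with other scaling or no filter). ITGA11 in N, at -2.03 (standard error 0.80), had an adjusted p of 0.2178 by edgeR and 0.08728 by limma. In N an unadjusted p under 0.05 was common, at 16.5% of genes. Of the other genes of the pathway, 1 passed in a clone, TNS3, a tensin that ties integrins to actin, which was higher in N by 1.23 log2 units (standard error 0.26, edgeR adjusted p = 0.03442). The summed cartilage markers were 2934 CPM in N against 66.2 to 2596 CPM in the other clones, and ACAN (aggrecan) made up 2734 CPM of it. The other 4 genes of that list were highest in other clones (COL2A1 and SOX9 in O, COL9A1 in P and MATN3 in F), and the part of these markers in the values of N was not tested.

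Receptor genes were next compared with their partners and ligands, in 16 pairs over the 17 clones. Pearson's r and Spearman's rho of the log2 levels were given two-sided permutation p-values, adjusted by Benjamini-Hochberg over the 16. By Pearson's r 2 pairs passed and by Spearman's rho 1 did. No batch is named in the labels, so no within-batch values could be given.

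The closest relation of these pairs was between ITGA11 and COL1A1, the main chain of the collagen I that it binds. COL1A1 was lowest in N at 13745 CPM, the clone with least ITGA11, and reached 87945 to 101930 CPM in M, B, E and F, where ITGA11 was 632.7 CPM or more. Pearson's r was 0.817 (permutation p = 0.00012, adjusted p = 0.00192) and rho was 0.762 (permutation p = 0.00068, adjusted p = 0.01088). Without N and M, the clones farthest from the median of ITGA11, r was 0.702 (permutation p = 0.00478), and leaving out any 1 clone gave 0.712 to 0.861. COL1A1 was so abundant that COL1A1, COL1A2, COL3A1 and FN1 together took 8.15% of reads in L and 20.6% in M, which shifts CPM by library total. With library totals in place of TMM the pair still passed. Genes other than this ligand followed ITGA11 more closely, up to r = 0.923 for C11H9orf9. ITGA11 also fell with the summed proliferation markers described below (slope -0.39). The part of those markers in this pair was not tested.

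ITGA1 rose with its partner ITGB1 over the clones (r = 0.712, permutation p = 0.00133, adjusted p = 0.01064). Both were highest in K and F, and ITGA1 was lowest in P and M, of which M was also lowest in ITGB1. By rank, Spearman's rho was 0.603 (permutation p = 0.01233, adjusted p = 0.09864), which did not pass. Without P and K r was 0.70 (permutation p = 0.00408). Het did not lie on this line, with ITGA1 at 229.7 CPM and ITGB1 at 1524 CPM, and with Het included r was 0.587 (permutation p = 0.01023, adjusted p = 0.08184).

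The other partner pairs did not pass. ITGB1 had r = 0.265 with ITGAV (rho = 0.26, permutation p = 0.303 and 0.311, 0.340 without G and I), and r = 0.040 with ITGA5 (rho = 0.0833, permutation p = 0.878 and 0.750, 0.378 without O and C). With ITGA10 it had r = -0.358 (rho = -0.397, permutation p = 0.155 and 0.117, -0.472 without N and P). With ITGA11 it had r = 0.034 (rho = 0.0809, permutation p = 0.896 and 0.757, 0.371 without N and M), a value whose sign turned to -0.3625 with library totals. ITGAV and ITGB3, which form one receptor, had r = -0.234 (rho = -0.0833, permutation p = 0.368 and 0.751, -0.0577 without G and I). ITGA5 and its ligand FN1 had r = -0.434 (rho = -0.409, permutation p = 0.0816 and 0.102, adjusted p = 0.3262), and r = -0.680 (permutation p = 0.00546) without O and C.

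Clone N also weighed on DDR2 and COL1A1. Their r was 0.366 (rho = 0.471, permutation p = 0.148 and 0.0583, adjusted p = 0.393, r = 0.204 without L and O), and 0.737 (permutation p = 0.00181, adjusted p = 0.01317) without N, which had 279.7 CPM of DDR2 beside the lowest COL1A1. ITGA10 and COL2A1, the cartilage collagen, had r = 0.285 (rho = 0.375, permutation p = 0.267 and 0.139, 0.121 without N and P). C and O had COL2A1 at 1063 and 1215 CPM, the highest of the clones, beside ITGA10 at 16.03 and 15.7 CPM, near its median. ITGA2 and COL1A1 had r = -0.492 (rho = -0.316, permutation p = 0.04205 and 0.218, adjusted p = 0.2243, r = -0.387 without N and Q), at counts that leave ITGA2 unranked. The 5 pairs not yet named had r between -0.347 (ITGA2 and ITGB1) and 0.238 (ITGAV and FN1), with adjusted permutation p-values of 0.393 or more. Among them ITGA1 and COL4A1, a chain of the collagen IV that it binds, had r = 0.148 (rho = 0.282, permutation p = 0.573 and 0.272, adjusted p = 0.6552). Without P and K it was 0.645 (permutation p = 0.0086), and 0.551 without P alone.

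Pairs within the receptor genes were tested in the same way, as 45 pairs chosen after the levels had been seen, and 4 passed by Pearson's r and 1 by Spearman's rho. ITGAV and DDR2 rose together, from G and I, low in both, to M, B, N and K (r = 0.810, permutation p = 0.00015, adjusted p = 0.00675, rho = 0.757, permutation p = 0.00076, adjusted p = 0.0342). Without G and I r was 0.746 (permutation p = 0.00178). Clone H lay off this line, with ITGAV at 358.7 CPM and DDR2 at 163.6 CPM. Both genes also fell with the summed proliferation markers described below (slopes -0.15 and -0.37). The part of those markers in this pair was not tested.

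ITGB3 and DDR1 ran in opposite directions, DDR1 being highest in P and Q, where ITGB3 was lowest (r = -0.794, permutation p = 0.00058, adjusted p = 0.01305, rho = -0.659, permutation p = 0.00476, adjusted p = 0.1071). Without Q and P r was -0.574 (permutation p = 0.0258), a smaller value than with them. ITGA5 and ITGB3 had r = 0.663 (permutation p = 0.00349, adjusted p = 0.03926, rho = 0.574, permutation p = 0.0183, adjusted p = 0.2035, r = 0.771 without O and C), and the adjusted p of this pair was above 0.05 in 11 of the 17 fits that leave out a clone. ITGA1 and ITGB1 were the remaining pair past the threshold.

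**Figure D3:**
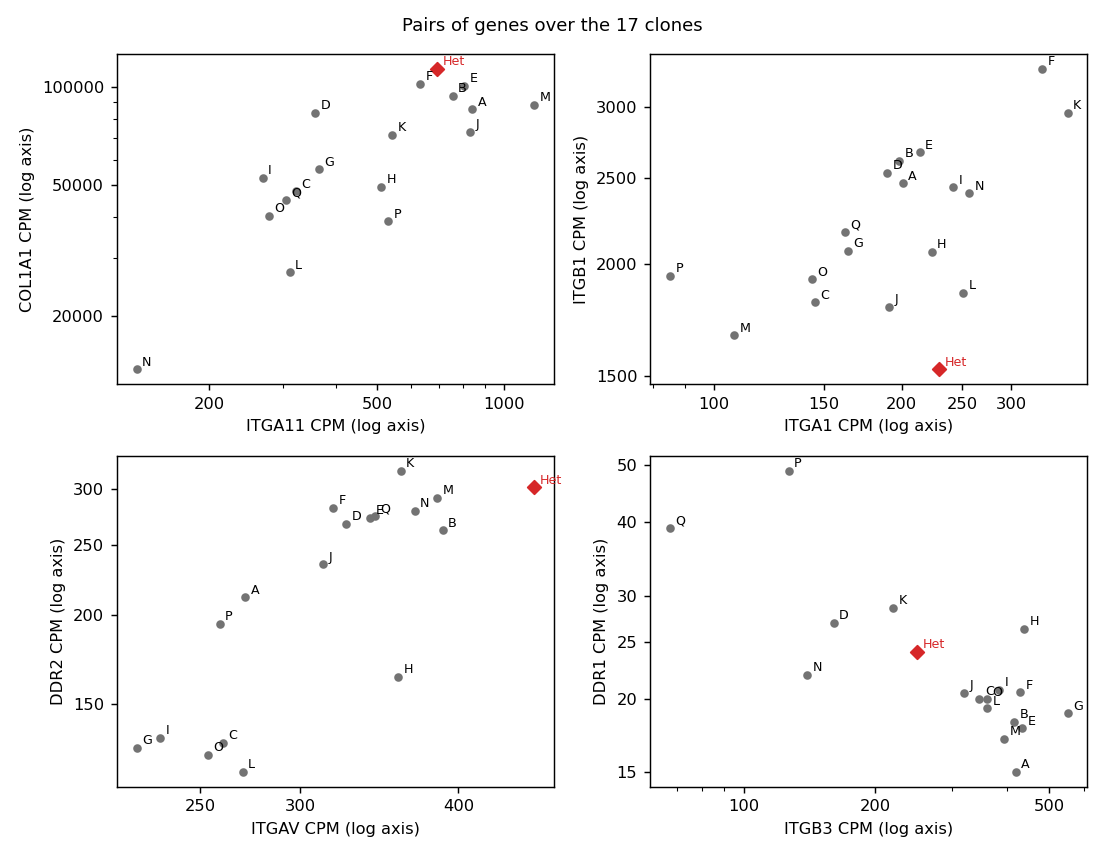
Levels of 4 pairs of genes in CPM on log axes, a grey point with its letter for each clone and a red diamond for the heterogeneous population. ITGA11 with COL1A1 (r = 0.817 over the 17 clones), ITGA1 with ITGB1 (0.712) and ITGAV with DDR2 (0.810) rise together, and ITGB3 with DDR1 (-0.794) falls, with P and Q at the upper left.

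The genes most like each receptor over the 17 clones were found by Pearson's r of log2 levels among all 11761 genes, as a description without a test. ITGA5 was close to CCT5, a subunit of a chaperonin (r = 0.932 over 17 clones), and to NAPG (0.914). ITGA1 was closest to ALDH1A1 (0.892), NEDD4 (0.887) and VCL (0.865), and ITGB1 to CFL2 (0.901) and NIPAL2 (0.866). For DDR2 they were ZMAT3 (0.952), TMEM159 (0.945) and UBE2Q1 (0.943). ITGB3 was closest to B3GALNT1 (0.930), RAP1GDS1 (0.920) and CADM1 (0.913), ITGA11 to C11H9orf9 (0.923), PODNL1 (0.912) and SLC2A8 (0.90), and ITGA10 to CFB (0.931), GPR157 (0.924) and PHEX (0.920). For ITGAV they were MARCH6, CEP120 and VCPIP1 (0.863 to 0.878), and for DDR1 CCDC138, IRF2 and SCRG1 (0.860 to 0.887). For ITGA2, with its few reads, they were BIRC6, MAPKBP1 and IVNS1ABP (0.747 to 0.789). Some of the like genes also had few reads in a clone. Among these were CFB (0 to 196), PHEX (1 to 36), C11H9orf9 (9 to 48) and SCRG1 (0 to 32), whose r is less sure.

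Clones also differed in their proliferation markers. The summed level of 6 proliferation markers (MKI67, TOP2A, CCNB1, CDK1, BUB1 and PCNA) ran from 58.5 CPM in M to 1149 CPM in L. A slope of every gene on the log2 of this sum was fitted by edgeR over the 17 clones, a test added after the levels were seen. The list is measured in the same libraries, and in bulk RNA fewer cells of a kind and less RNA per cell cannot be told apart. The sum is widely shared, since 35.4% of 11761 genes passed an adjusted p of 0.05, 17.6% with a positive and 17.8% with a negative slope, and 4 of the 10 receptor genes did so. That share of the receptor genes is near the background.

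Of these 4, DDR2 had the smallest p. It fell by 0.37 log2 units per doubling of the proliferation sum (slope -0.37, standard error 0.04, edgeR adjusted p = 2.327e-06), which ranked 281 by p among all genes, and the slope stayed between -0.40 and -0.35 with each clone left out. The 6 clones lowest in DDR2 (L, O, G, C, I and H) were the 6 highest in the sum, at 397.6 to 1149 CPM. ITGA11 also fell, with a slope of -0.39 (standard error 0.11, edgeR adjusted p = 0.008412). ITGAV had a shallower slope of -0.15 (standard error 0.04, edgeR adjusted p = 0.003622), which was -0.08 with library totals (edgeR adjusted p = 0.1502). ITGA5 went the other way at 0.28 (standard error 0.09, edgeR adjusted p = 0.01686), and 0.25 without C (adjusted p = 0.05737) or 0.23 without O (adjusted p = 0.07911). The other receptor genes did not pass. Among them were ITGA10 with a slope of -0.01 (standard error 0.27) and ITGA1 with -0.04 (standard error 0.10).

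**Figure D4:**
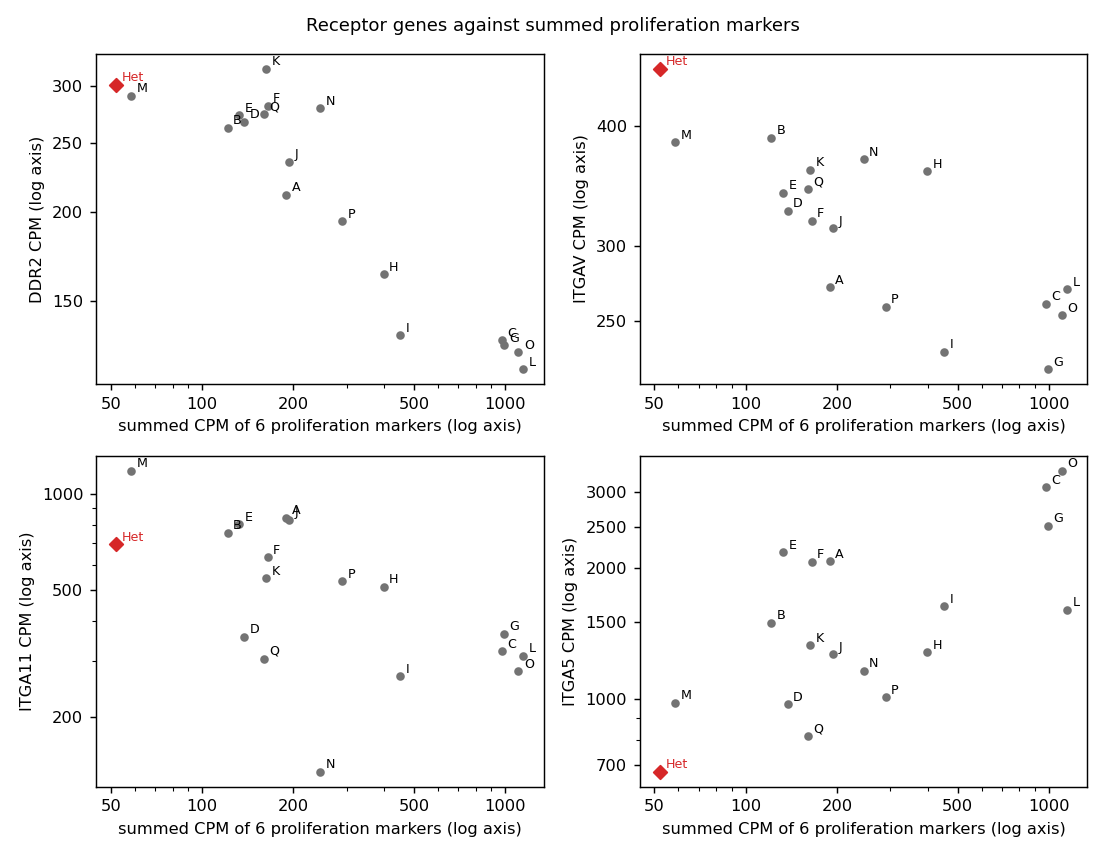
Level of DDR2, ITGAV, ITGA11 and ITGA5 against the summed level of 6 proliferation markers, both in CPM on log axes, with a lettered grey point per clone and a red diamond for the heterogeneous population. DDR2 falls from K, M and N to C, G, O and L, ITGA5 is highest in O, C and G, and the heterogeneous population has the lowest sum (52.2 CPM).

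The same fit was made on 2 further marker lists, and 1 receptor gene passed on each. On the summed muscle-type contractile markers, which 15.3% of genes followed, 1 receptor gene passed, ITGA10, which fell by 0.93 log2 units per doubling (standard error 0.23, edgeR adjusted p = 0.01123, 0.08169 without N). ITGB3 fell just short with a slope of 0.60 (standard error 0.20, edgeR adjusted p = 0.05432). ITGB1 had a slope of 0.20 on this list (standard error 0.07, edgeR adjusted p = 0.06872). On the summed cartilage markers, which 8.88% of genes followed, ITGA11 passed with a slope of -0.29 (standard error 0.08, edgeR adjusted p = 0.02686), and it did not pass in 5 of the 17 fits that leave out a clone, with an adjusted p of up to 0.06503 (without N). ITGA10 had a slope of 0.35 on the cartilage list (standard error 0.11, edgeR adjusted p = 0.06349).

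Finally, the heterogeneous population was set against the 17 clones. None of the 10 receptor genes passed an adjusted p of 0.05 by edgeR, limma or DESeq2, against 1.22% of the 11878 genes tested by edgeR (1.21% higher and 0.00842% lower). Without adjustment 1 of the 10 had a p under 0.05 by edgeR, ITGAV, where 7.68% of all genes did. That gene changed with the setting, to ITGA5 by limma and to ITGB1 with library totals. DESeq2 gave 3 such genes, ITGA5, ITGAV and ITGB1. The share of 7.68% is that of edgeR, and none is given for DESeq2, so its count cannot be read as an excess. The spread of Het was taken to be that of the clones, since it is a single library, and by rank alone 1 library against 17 cannot give an exact two-sided p below 0.111.

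In level, 3 receptor genes lay outside the range of the clones. ITGA5 had 676.7 CPM in Het against 816.9 CPM or more in the clones (log2 difference -1.33, standard error 0.68, edgeR adjusted p = 0.6657), and ITGB1 had 1524 CPM against 1665 CPM or more (-0.58, standard error 0.32, edgeR adjusted p = 0.68). ITGAV had 459.1 CPM against at most 388.7 CPM (0.57, standard error 0.25, edgeR adjusted p = 0.6157). Over all genes tested, Het lay above every clone in 9.5% and below every clone in 8.71%. With ITGA5 below and ITGAV above every clone, the ratio of ITGA5 to ITGAV reads had to fall outside the clones. It was 1.47 in Het against 2.38 (Q) to 13.2 (O) in the clones. The summed proliferation markers were also lower in Het than in any clone, at 52.2 CPM, and their part in these values was not tested.

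The other 7 receptor genes lay within the clones. DDR2 was above 16 of 17 clones (log2 difference 0.47, standard error 0.45) and ITGA10 above 3 (-1.64, standard error 1.34). ITGB3, which osteoclasts carry in abundance, had 248.9 CPM, above 5 of the clones and below their median. Of the osteoclast genes, MMP9 had a log2 difference of 7.30 in Het (10509 reads against at most 229 in a clone). ACP5 had 3.15 (116 reads against at most 33). CTSK, TNFRSF11A and NFATC1 had log2 differences of 0.83, 0.80 and -0.77, and CALCR and OCSTAMP had 0 reads in Het. ATP6V0D2 (7 reads against at most 1 in a clone) and DCSTAMP (4 against 0) were not tested. In all, 4 genes of the list lay above every clone, as did 9.5% of all genes tested. The list summed to 3741 CPM in Het, within the 781.9 to 3876 CPM of the clones. Most of that sum was CTSK, at 2996 CPM in Het and 664.9 to 3813 CPM in the clones. The part of the list in the level of ITGB3 was not tested. The median log2 difference was 0.10 over the 10 receptor genes and -0.04 over all genes tested.

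Related genes were counted list by list. Of 14 tested genes for other integrins 2 were higher in Het and 0 lower, of 22 for the adhesion complex 1 was higher, of 17 for ligands 0 (2 with an unadjusted p under 0.05 by edgeR, 0 past the threshold by limma and DESeq2), and of 4 for other collagen receptors 1 was higher, against 1.21% of all genes called higher. The 4 genes were ITGB2, the beta subunit of leukocyte integrins, ITGAD, one of its alpha partners, FERMT3, the kindlin of blood cells, and CD36, a scavenger receptor. ITGB2 had 350 reads in Het where no clone had over 11, a log2 difference of 6.37 (standard error 0.73, edgeR adjusted p = 2.167e-05). FERMT3 had 83 where no clone had over 6, a log2 difference of 5.57 (standard error 0.68, edgeR adjusted p = 3.487e-05). ITGAD had 14 against at most 2 and CD36 had 122 against at most 32, and DESeq2 did not call either (adjusted p = 0.3732 and 0.1869, against 0.006332 and 0.02291 by edgeR). The macrophage markers given above moved in the same library as these 4 genes. So did 2 of 4 tested platelet markers, PF4 (82 reads against at most 6 in a clone) and PPBP (27 against at most 1), where ITGA2B and GP9 lay within the clones, GP1BA and SELP had 0 reads, and the list summed to 28.4 CPM against 18.6 to 28.1 CPM. The part of either list in the 4 genes was not tested. Reads in 1 library were enough to pass the filter on low counts. ITGAD, FERMT3, PF4, PPBP and some of the macrophage markers passed it through Het alone. The shares of tested genes called higher in Het therefore lean towards genes that are high in Het, as does the share over all genes.

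Genes that work beside the 10 receptors lay within the spread of the clones or missed the threshold. Talin (TLN1, log2 difference 0.23, standard error 0.26), the kindlin of adherent cells (FERMT2, -0.23, standard error 0.57) and vinculin (VCL, -0.15, standard error 0.37) did not pass by edgeR, nor did the beta subunit ITGB5, which pairs with ITGAV (0.24, standard error 0.38). ITGA6, a laminin receptor, had 252 reads in Het against 291 to 5242 in the clones (-2.74, standard error 1.35, edgeR adjusted p = 0.6558). COL1A1 was above every clone at 113526 CPM (0.85, standard error 0.64, edgeR adjusted p = 0.7453), beside ITGA11 at 694.3 CPM.

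**Figure D5:**
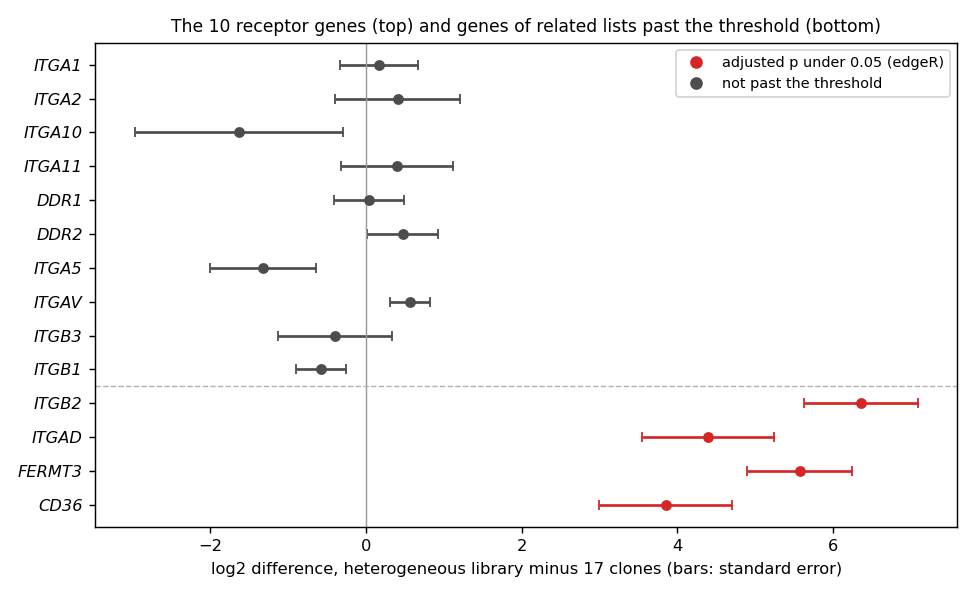
Log2 difference of the heterogeneous library from the 17 clones in edgeR's quasi-likelihood fit, with bars of 1 standard error, for the 10 receptor genes above the dashed line and for 4 genes of related lists below it. Of these 4, ITGAD and FERMT3 passed the filter on low counts through the heterogeneous library alone. The receptor genes lie between -1.64 and 0.57 and none passed an adjusted p of 0.05, whereas ITGB2, ITGAD, FERMT3 and CD36 (red) lie between 3.85 and 6.37.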

How the data were processed

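Poly-adenylated RNA of 17 clones and 1 heterogeneous population was sequenced by the authors as single-end reads, aligned to bosTau7 with STAR 2.3.0e and counted per RefSeq gene with HTSeq. The deposited values are raw counts, 1 whole number per gene symbol and library, and the library kit does not mark strand. The 5 tally lines of each file, of which reads outside genes made 18.78% to 26.81% of a file, stayed out of library sizes. Gene coordinates, lengths and sequences were not used here.

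Counts were normalised by TMM and tested with edgeR 4.0.16 (filterByExpr, at least 10 reads, glmQLFit and glmQLFTest) in R 4.3.3, called at a Benjamini-Hochberg adjusted p under 0.05 over all genes tested. Levels entered correlations as log2(CPM + 0.25), with 100000 resamples for each permutation p. limma 3.58.1 and DESeq2 1.42.0 were alternatives. The tests of a population against the others and the slope fit of edgeR were tried on simulated data, and the slope fit of limma was not. Correlations and figures were made in Python 3.11.15 with scipy 1.17.1 and matplotlib 3.10.9. Named were the 10 receptor genes, pair genes, the 3 genes most like each receptor (some are not reported here), and list genes past the threshold. Other genes named were chosen after their values were seen. The receptor genes and lists were chosen with earlier results of these data known. Replicates here are clones of 1 donor, so p-values measure the spread between clones.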

Additional observations from a re-analysis of the deposited data

How the results depend on the processing

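No paired analysis was possible because the heterogeneous population has 1 library. Reads limit ITGA2 (2 to 13 per clone), and the single heterogeneous library limits every comparison with it. Against the heterogeneous population, 0 receptor genes passed under each scaling, filter, tool and omitted clone. The count over all genes, 145, was 89 by DESeq2, 204 without a filter, 216 by limma and 137 to 155 with a clone left out, and the 4 genes of related lists became 2 by DESeq2 and 6 without a filter (ITGAL and LAIR1 added). Of the pairs with partners and ligands, 1 passed by Spearman's rho and 1 with the heterogeneous population added, in place of 2, and 3 passed without N. Of the 45 pairs of receptor genes, 4 passed by Pearson's r, 1 by Spearman's rho, and 2 to 6 with a clone left out (2 without F or K, 6 without M). On muscle-type markers limma called 3 receptor genes in place of 1, and 1 to 4 passed with a clone left out (4 without M, 2 without D, K, L, N, O or Q). On cartilage markers 0 to 2 did (0 without E, M, N or Q, 2 without C or H). With library totals, which shift levels by -0.19 to 0.19 log2 units between clones, the difference of DDR1 in the heterogeneous population turned to -0.0615 and the r of ITGA11 and ITGB1 to -0.3625. That r was -0.047 with the heterogeneous population added and ran from -0.0521 to 0.248 with a clone left out. The r of ITGA5 and ITGB1 ran from -0.0827 to 0.181 and that of DDR1 and COL4A1 from -0.201 to 0.428, the latter negative without P. None of these 3 pairs passed in the main comparison, and the cause of these changes was not tested.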
